A study of Mus musculus with 8 samples.

Results

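The 4 mouse tropomyosin genes Tpm1, Tpm2, Tpm3 and Tpm4 were followed in thoracic aorta of mice that lacked the RNA demethylase gene Fto (Fto -/-, 4 samples) and of mice that carried it (Fto +/+, 4 samples). A probe belonged to the set when its array identifier was a RefSeq transcript of one of these genes; the genes themselves were selected on the genotype differences of their probes in these arrays. The 4 genes, of 21368 named genes on the array, had 11 of the 55681 probes that are not controls: 5 of Tpm1, 2 of Tpm2, 3 of Tpm3 and 1 of Tpm4. The question was whether probes annotated to different transcripts of a gene differed alike between the genotypes. Both genotypes were on a C57BL6J/NMRI background and labelled male, and ages are not given in the sources used here. RNA with an integrity number over 8 was labelled with the dye Cy3 and read on 1 Agilent SurePrint G3 expression array per sample. Whether each sample came from its own mouse is not stated, and p-values then cover only the sample-to-sample spread, which may be technical.

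Tropomyosins are coiled-coil dimers that lie end to end along actin filaments and control where myosin and other proteins bind. In striated muscle they work with troponin, and in smooth muscle, such as the aortic wall, with caldesmon and calponin. Each gene makes several proteins through alternative promoters and alternative exons. Tpm1 (alpha) and Tpm2 (beta) supply the main muscle forms, while Tpm3 (gamma) supplies slow skeletal muscle and cytoskeletal forms and Tpm4 mainly cytoskeletal ones. RefSeq lists 10 curated Tpm1 transcripts, of which 4 named a probe here, 3 of Tpm2 (2 with a probe), 7 of Tpm3 (2 with a probe) and 1 of Tpm4. Transcripts of a gene share exons and the genes resemble each other, and probe sequences were not used here, so a probe may read more than the transcript it is named for.

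Levels are log2 intensities minus the 75th percentile of the array, which lay between 294.1 and 414.8 intensity units. In Fto -/- replicates 1 to 4, 47.8%, 45.9%, 45.9% and 45.6% of probes were well above background. In Fto +/+ replicates 1 to 4 the shares were 45.2%, 44.6%, 44.9% and 44.5%, each below that of each Fto -/- array. The reason was not tested. The Fto probe lay between -2.77 and -2.19 in the samples labelled Fto -/- and between 0.35 and 0.86 in those labelled Fto +/+, a log2 difference of -3.08 ± 0.15 (SE, limma adjusted p = 0.000403). The free-text description of each sample names the opposite genotype, and groups follow titles and genotype fields. Although the labels say male, Xist, a transcript of the inactive X, was detected by both of its probes on each of the 8 arrays, and probes of 5 Y-linked genes in 1 of 48 readings. All 10 smooth muscle marker genes were well above background on all 8 arrays, among them Acta2 and Myh11.

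Tropomyosin signal was lower in the Fto -/- aortas for 1 of the 5 Tpm1 probes and for both Tpm2 probes, with no overlap between genotypes; among all tested probes 7.24% were lower without overlap, 4.74% higher, and 12.0% either. The other 4 Tpm1 probes, the tested Tpm3 probes and the Tpm4 probe overlapped. Of the 11 probes 10 were well above background on all 8 arrays and were tested, and their differences ran from -0.64 to 0.10 (9 below 0). In the fit over all 25304 tested probes 2 of the 10 passed an adjusted p of 0.05, both lower, where 1.66% of all tested probes passed (0.814% lower). A further 2 of the 10 had an unadjusted p under 0.05, which made 4 of 10 in all, against 18.9% of all tested probes. The genes were chosen with these differences known, so the counts describe the set and support nothing. No tropomyosin spot was saturated or an outlier on any array.

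**Figure D1:**
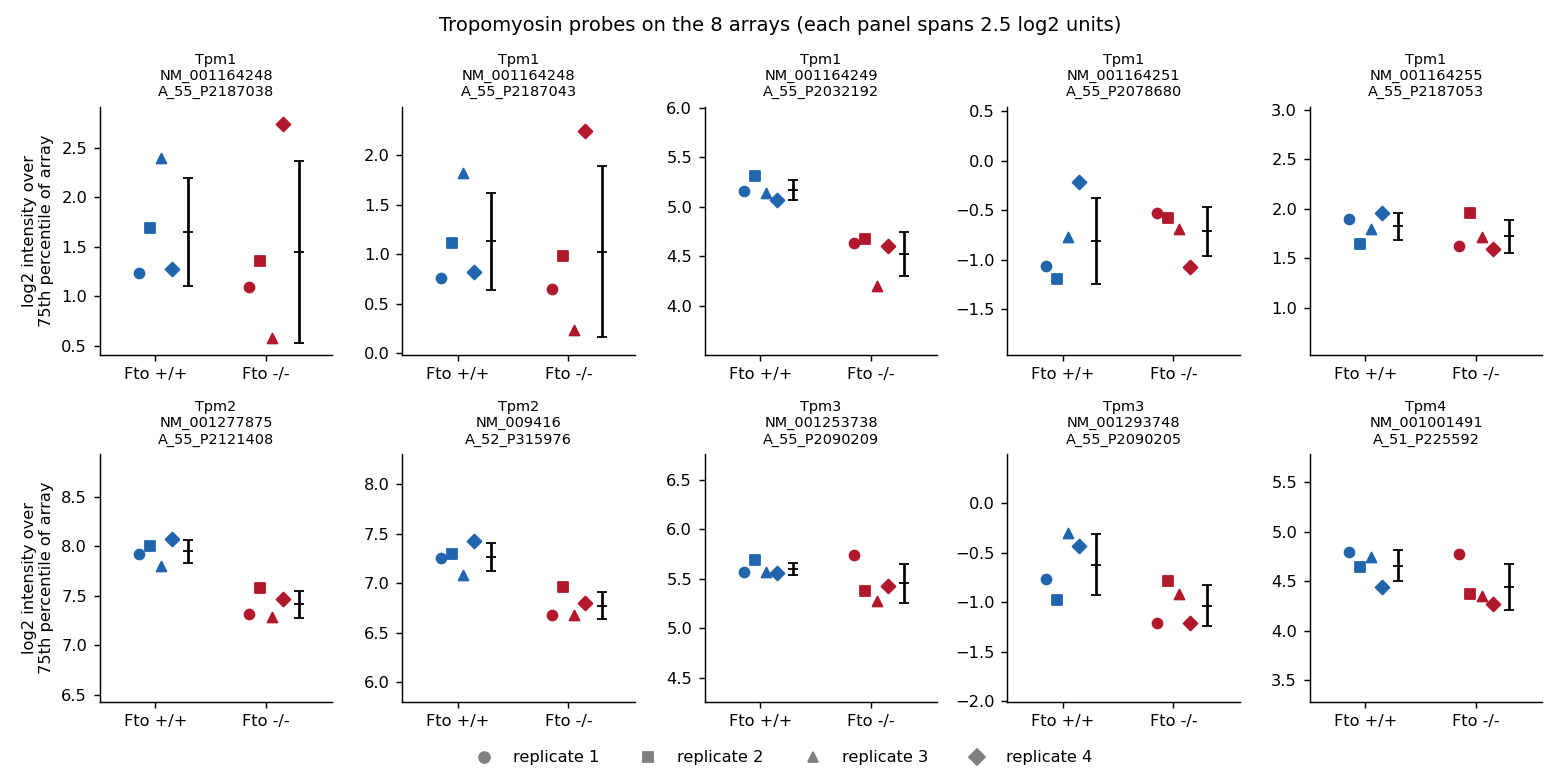
Log2 intensity over the 75th percentile of the array (y axis) for the 10 tested tropomyosin probes in Fto +/+ (blue) and Fto -/- (red) aortas. Each marker is 1 array, the bars give mean ± SD (n = 4), and each panel spans the same number of log2 units; the genotypes are apart for Tpm1 NM_001164249 and both Tpm2 probes, and the Tpm1 NM_001164248 probes spread most between arrays.

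The brightest Tpm1 probe is named for NM_001164249 (A_55_P2032192). Its level was 4.63, 4.67, 4.20 and 4.60 in Fto -/- replicates 1 to 4. In Fto +/+ replicates 1 to 4 it was 5.16, 5.31, 5.14 and 5.07. The highest Fto -/- array thus lay 0.40 below the lowest Fto +/+ array, and Fto -/- replicate 3 was the lowest of all. The means were 4.52 ± 0.22 and 5.17 ± 0.10 (SD, n = 4 each), a log2 difference of -0.64 ± 0.13 (SE, limma adjusted p = 0.0464) or 1.56-fold lower. Its intensities ran from 5391 to 16450. The difference stayed between -0.70 and -0.54 in all 18 alternative fits, while its adjusted p ran from 0.0274 to 0.91 and passed in 3. Of the 8 fits without 1 array it passed only without Fto +/+ replicate 4 (-0.68, limma adjusted p = 0.0451); without any of the other 7 arrays it did not pass.

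The remaining Tpm1 probes did not separate the genotypes. The NM_001164255 probe (A_55_P2187053) held 1.62, 1.96, 1.71 and 1.59 in Fto -/- and 1.90, 1.64, 1.79 and 1.96 in Fto +/+ samples. Its whole range over the 8 arrays was 0.38, and its difference -0.10 ± 0.12 (SE, limma adjusted p = 0.671) had a 95% interval from -0.37 to 0.17. That range was the smallest of the 10 probes, while the SE of both Tpm2 probes and of Tpm3 NM_001253738 was smaller. The NM_001164251 probe (A_55_P2078680), at intensities of 160.2 to 275.2, lay between -1.07 and -0.53 in Fto -/- samples and between -1.20 and -0.22 in Fto +/+ samples, a difference of 0.10 ± 0.22 (SE, limma adjusted p = 0.842). Its sign turned within slide row 2 and without Fto +/+ replicate 2.

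A pair of Tpm1 probes carries the same name, NM_001164248, and moved together but not with genotype. The first of them (A_55_P2187038) was at 1.09, 1.36, 0.58 and 2.74 in Fto -/- replicates 1 to 4 and at 1.23, 1.69, 2.40 and 1.27 in Fto +/+ replicates 1 to 4. The other (A_55_P2187043) was at 0.65, 0.98, 0.23 and 2.24 and at 0.76, 1.11, 1.82 and 0.82. On each array the former exceeded the latter by 0.35 to 0.58, with an SD of 0.08, while each spanned over 2 log2 units between arrays (2.15 and 2.01). On both, Fto -/- replicate 4 and Fto +/+ replicate 3 were highest and Fto -/- replicate 3 lowest. The genotype differences were -0.20 ± 0.45 and -0.10 ± 0.42 (SE), with 95% intervals from -1.23 to 0.83 and from -1.06 to 0.85. Such intervals hold the difference of the NM_001164249 probe as well as none.

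Striated muscle genes as a list were high and low on some of the same arrays. Of 17 cardiac and skeletal muscle markers 13 were tested; limma called 0 (2 had an unadjusted p under 0.05), and Myh1, Myh2, Myh4 and Mylpf were too dim. Their mean level, each gene centred over the arrays, was -0.59, -0.06, -1.31 and 0.78 in Fto -/- replicates 1 to 4 and 0.06, 0.41, 1.26 and -0.54 in Fto +/+ replicates 1 to 4. The highest pair of arrays and the lowest array were those of the NM_001164248 probes, though Fto +/+ replicate 3 led the list and Fto -/- replicate 4 the probes, and the middle arrays differed in order. Summed, the list spanned 4.5 to 5.39 in Fto -/- samples and 5.1 to 5.76 in Fto +/+ samples, where Acta1, its brightest gene, had means of 4.29 and 4.83. Single genes varied: the atrial myosin light chain gene Myl7 was highest in Fto -/- replicate 4 (1.71) and next in Fto +/+ replicate 2 (-0.03), while the ventricular light chain gene Myl2 was at -2.31 in Fto -/- replicate 4 and 0.37 in Fto +/+ replicate 3. Among 13050 other named genes, the pattern of A_55_P2187038 over the 8 arrays was most like that of Cox6a2, a heart and skeletal muscle subunit of cytochrome oxidase (Pearson r = 0.965). Next came Sln, which encodes the calcium pump regulator sarcolipin (0.925), Srprb (0.924) and the homeobox gene Hoxc9 (0.907), neither of them a muscle gene. Pgam2, a muscle glycolytic enzyme (0.895), the myosin light chain gene Myl3 (0.877), the M-band gene Myom2 (0.877) and the DNA repair gene Nthl1 (0.867) completed the nearest 8. In Fto -/- replicate 3 Cox6a2 (-3.5), Sln (-5.61) and Myom2 (-4.83) were not well above background, nor in Fto +/+ replicate 4 Myl3 (-3.16) and Myom2 (-3.8). These genes were named after their values were seen; the arrays share their scaling, and the part of striated muscle in the Tpm1 readings was not tested.

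**Figure D2:**
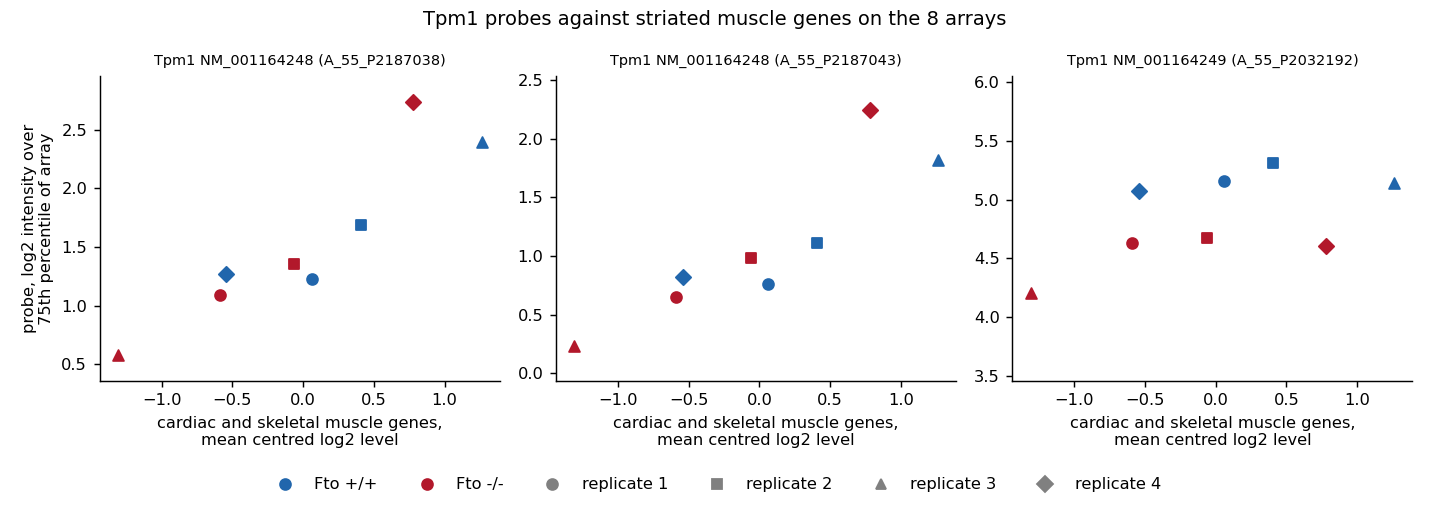
Level of 3 Tpm1 probes (y axis, log2 intensity over the 75th percentile of the array) against the mean centred log2 level of 13 cardiac and skeletal muscle genes (x axis), with 1 marker per array, blue for Fto +/+ and red for Fto -/-. Both NM_001164248 probes are highest on the same 2 arrays as the muscle genes, while on the NM_001164249 probe each Fto -/- array lies under each Fto +/+ array. Pearson r with the list was 0.916 and 0.891 for the NM_001164248 probes, or 0.940 and 0.933 with each genotype centred. For the NM_001164249 probe it was 0.575, or 0.582 centred.

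Without the pair of arrays brightest for NM_001164248, an alternative chosen after seeing the data, the NM_001164249 probe differed by -0.68 and the Tpm2 NM_001277875 probe by -0.60 (limma adjusted p = 0.204 and 0.179, with 3 samples per genotype). Both were as large as with all arrays, and neither passed.

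The probes of Tpm1 were then set against each other on each array, which cancels the scaling of the array. The log2 difference between 2 probes of 1 gene named for different transcripts was fitted with limma for all 929 such pairs of 595 genes. Of the 929 pairs 4.84% passed, from 32 genes, and 24.1% had an unadjusted p under 0.05. Of the 11 tropomyosin pairs limma called 0 (2 had an unadjusted p under 0.05), and 1 had no overlap between genotypes, against 14.7% of all pairs. No unequal change between tropomyosin probes passed the threshold at this number of arrays.

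The pair apart was NM_001164249 over NM_001164255. The former exceeded the latter by 2.81 ± 0.26 in Fto -/- and 3.35 ± 0.23 in Fto +/+ samples (SD, n = 4 each), a change of -0.54 ± 0.17 (SE, 95% interval -0.92 to -0.16, limma adjusted p = 0.1). Against NM_001164251 the change was -0.74 ± 0.27 (95% interval -1.36 to -0.13, limma adjusted p = 0.141). That pair passed without Fto +/+ replicate 4 (-0.98, adjusted p = 0.0288), and both pairs passed with normexp background correction on median signals (-0.60 and -0.81, adjusted p = 0.048 each), an alternative chosen after seeing the data. Over all 18 alternatives the adjusted p ran from 0.048 to 0.944 for the former pair and from 0.0288 to 0.985 for the latter. Against the NM_001164248 probes the changes were -0.44 ± 0.41 and -0.54 ± 0.39 (SE), with intervals that included 0. The other 5 pairs of Tpm1 probes differed by -0.30 to 0.10, with adjusted p from 0.544 to 1.

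**Figure D3:**
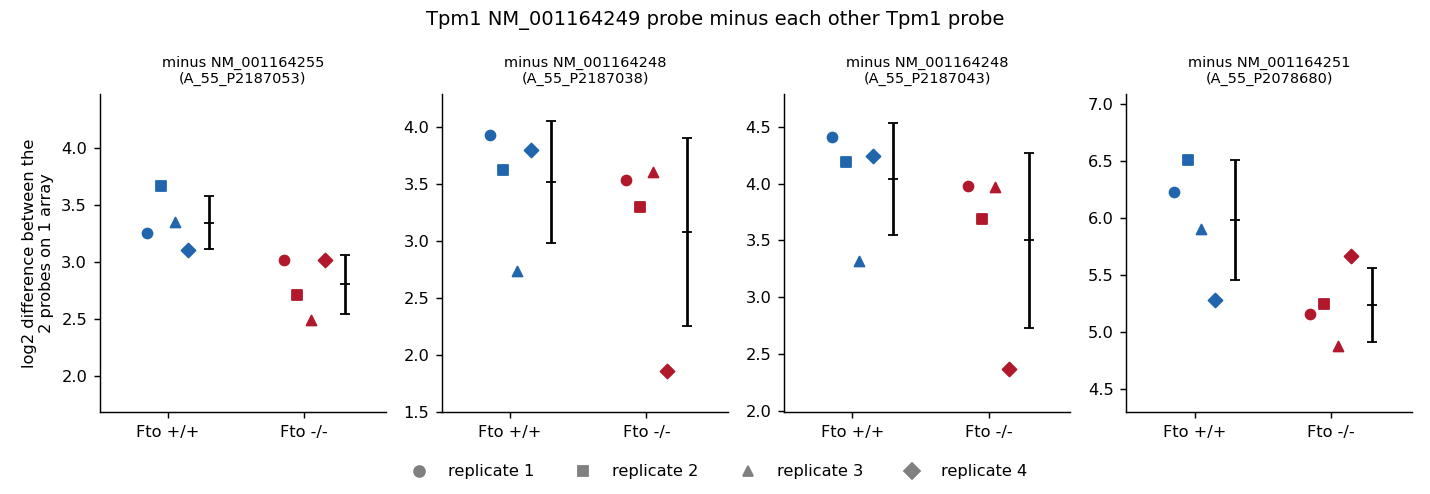
Log2 difference between the Tpm1 NM_001164249 probe and each other Tpm1 probe with another transcript name on the same array (y axis), in Fto +/+ (blue) and Fto -/- (red) samples, with mean ± SD (n = 4). The genotypes are apart in the first panel alone, and Fto -/- replicate 4 and Fto +/+ replicate 3 lie low against the NM_001164248 probes.

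Tpm2, the beta tropomyosin gene, was lower in Fto -/- samples on both of its probes. The NM_001277875 probe (A_55_P2121408) stood at 7.32, 7.58, 7.29 and 7.47 in Fto -/- replicates 1 to 4. In Fto +/+ replicates 1 to 4 it stood at 7.92, 8.00, 7.80 and 8.07, so the nearest arrays of different genotype were 0.23 apart. The log2 difference was -0.53 ± 0.10 (SE, limma adjusted p = 0.0464), or 1.45-fold lower. The NM_009416 probe (A_52_P315976) held 6.68, 6.96, 6.68 and 6.80 in Fto -/- and 7.26, 7.30, 7.09 and 7.43 in Fto +/+ samples. It also left a gap between the genotypes, of 0.14, and its difference of -0.49 ± 0.11 (SE, limma adjusted p = 0.0695), or 1.41-fold lower, missed the threshold.

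The Tpm2 probes changed by nearly the same amount. NM_001277875 exceeded NM_009416 by 0.64 ± 0.02 in Fto -/- and 0.68 ± 0.03 in Fto +/+ samples (SD, n = 4 each), a change of -0.04 ± 0.09 (SE, 95% interval -0.24 to 0.16, limma adjusted p = 0.815). On both, Fto +/+ replicate 4 was highest and Fto -/- replicates 1 and 3 were lowest. Over the 18 alternatives the NM_001277875 difference lay between -0.60 and -0.49 and the NM_009416 difference between -0.56 and -0.44. The adjusted p of NM_001277875 ran from 0.0253 to 0.971 and passed in 2 alternatives, and it passed in 0 of the 8 fits without 1 array in limma (adjusted p from 0.0519 to 0.14).

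Slide row was uneven between genotypes, since row 1 held 3 Fto -/- arrays with 1 Fto +/+ array and row 2 the reverse. Within rows 1 and 2 the Tpm1 NM_001164249 probe differed by -0.67 and -0.57, and the Tpm2 NM_001277875 probe by -0.53 and -0.49, close to the values over all arrays. In the fit blocked on row the differences were -0.62 and -0.51 (limma adjusted p = 0.185 each). The same block turned the NM_001164248 probes to 0.37 and 0.42; Fto -/- replicate 4 was the only Fto -/- array of row 2.

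**Figure D4:**
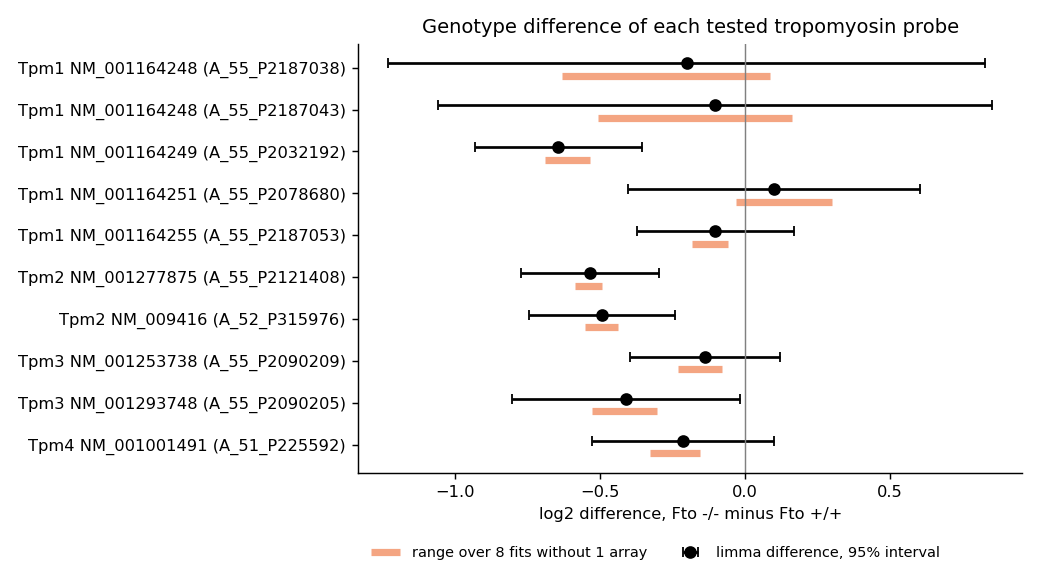
Log2 difference (x axis, Fto -/- minus Fto +/+) of the 10 tested tropomyosin probes with its 95% interval from limma (black) and the range over the 8 fits that each leave out 1 array (orange). The Tpm1 NM_001164249 probe and both Tpm2 probes keep to values of -0.44 and below in these fits, while the NM_001164248 probes range across 0.

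Upstream sequence is shown for Tpm1 and Tpm2, the genes with probes that were lower in Fto -/- samples, from 250 bases before to 50 bases after a RefSeq transcript start (GRCm38.p6, both on the minus strand). The Tpm1 window is chr9:67049164-67049463 and the Tpm2 window chr4:43523505-43523804, written 5′ to 3′ along the gene. Which of the probes' transcripts start there was not examined. Capitals mark GGAATG, the core of the M-CAT element of muscle genes, and GGGCGG, the GC box, each searched on both strands; the reverse complement CCGCCC marks a GC box on the other strand.
Tpm1: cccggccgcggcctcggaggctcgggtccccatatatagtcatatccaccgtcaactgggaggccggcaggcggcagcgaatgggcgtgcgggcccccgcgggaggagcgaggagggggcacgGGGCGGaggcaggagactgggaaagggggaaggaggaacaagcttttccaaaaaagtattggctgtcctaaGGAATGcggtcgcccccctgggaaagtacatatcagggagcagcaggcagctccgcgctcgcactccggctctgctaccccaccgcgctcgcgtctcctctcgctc
Tpm2: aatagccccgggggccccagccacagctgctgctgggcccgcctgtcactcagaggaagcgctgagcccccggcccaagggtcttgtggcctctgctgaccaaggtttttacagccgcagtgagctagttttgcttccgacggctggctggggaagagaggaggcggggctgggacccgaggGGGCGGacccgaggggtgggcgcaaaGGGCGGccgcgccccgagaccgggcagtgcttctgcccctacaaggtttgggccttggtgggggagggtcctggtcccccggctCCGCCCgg
The Tpm1 window held 1 GGAATG, starting 56 bases upstream of the start, and the Tpm2 window none. GGAATG occurs in 14.7% of 32851 such windows. GGGCGG, found in 35.7% of windows, occurred once for Tpm1 and 3 times for Tpm2. The E-box CANNTG, in 72.3% of windows, occurred once in each. The CArG box, bound by serum response factor, was searched as CCWWWWWWGG (W for A or T) with no mismatch allowed. In that strict form it is in 1.63% of windows and was not among the letters of the Tpm1 or the Tpm2 window. No matches of different motifs overlapped in these windows. The table also held 2 windows for Tpm3 and 1 for Tpm4, with no GGAATG and no CArG box.

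Tpm3 and Tpm4, which supply most of the cytoskeletal forms, overlapped between genotypes. The bright Tpm3 probe, NM_001253738 (A_55_P2090209), was at 5.74, 5.38, 5.28 and 5.43 in Fto -/- and at 5.57, 5.69, 5.57 and 5.56 in Fto +/+ samples. Its difference was -0.14 ± 0.11 (SE, 95% interval -0.40 to 0.12, limma adjusted p = 0.542), and Fto -/- replicate 1 was the highest of all arrays. The NM_001293748 probe (A_55_P2090205), at intensities of 145.2 to 308.8, was at -1.21, -0.79, -0.92 and -1.21 in Fto -/- and at -0.77, -0.98, -0.30 and -0.43 in Fto +/+ samples. Its difference of -0.41 ± 0.17 (SE, limma adjusted p = 0.246) did not pass, and the Tpm3 probes did not differ detectably from each other (0.27 ± 0.23, 95% interval -0.25 to 0.80, limma adjusted p = 0.49). A further Tpm3 probe of the same transcript name (A_55_P2246235) exceeded background on 0 of the 8 arrays, at intensities of 6.45 to 27.8, and was not tested.

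The Tpm4 probe, NM_001001491 (A_51_P225592), was at 4.78, 4.37, 4.35 and 4.27 in Fto -/- and at 4.80, 4.65, 4.75 and 4.44 in Fto +/+ samples. Only Fto -/- replicate 1 lay among the Fto +/+ arrays above Fto +/+ replicate 4. The difference was -0.22 ± 0.14 (SE, 95% interval -0.53 to 0.10, limma adjusted p = 0.427).

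Other genes of the thin filament did not pass singly. Of 35 listed partners of tropomyosin 31 were tested and limma called 0, against 1.66% of all tested probes, and 11 had an unadjusted p under 0.05, against 18.9%. Their median log2 difference was -0.25, against -0.01 over all tested probes. Of the 31, 22 were below 0, against 52.5% of all tested probes. The actin-severing cofilin gene Cfl2 differed by -0.40 ± 0.08 (SE, limma adjusted p = 0.0514) and the related destrin gene Dstn by -0.50 ± 0.10 (0.0548). Lmod1, a smooth muscle leiomodin that nucleates filaments beside tropomyosin, differed by -0.77 ± 0.17 (0.0672). Acta1, the skeletal actin gene, differed by -0.53 ± 0.16 (0.125). The caldesmon gene Cald1 differed by -0.31 and the calponin gene Cnn1 by -0.32 (limma adjusted p = 0.174 and 0.149). The smooth muscle actin gene Acta2 differed by 0.09 ± 0.10 (0.691).

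Of 22 genes for RNA-binding proteins that act on tropomyosin or other muscle exons, 18 were tested, 1 rose and 0 fell, with a median of -0.03; of all tested probes 0.846% were called higher and 0.814% lower. Rbfox1 rose by 2.01 ± 0.18 (SE, limma adjusted p = 0.00379). Rbpms2, a smooth muscle splicing regulator, differed by -0.66 ± 0.15 (0.0713) and Ptbp2, of the polypyrimidine tract binding family, by 0.33 ± 0.11 (0.152). Celf2 differed by -0.19 ± 0.09 (0.277).

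Cell marker lists were set beside these values. In each of them limma called 0 genes, and the summed levels overlapped between genotypes. Such sums follow the brightest genes of a list, for smooth muscle Acta2, Tagln and Cnn1. Smooth muscle markers overlapped between genotypes, with summed levels of 11.3 to 11.5 in Fto -/- and 11.4 to 11.7 in Fto +/+ samples; limma called 0 of 10 (4 had an unadjusted p under 0.05). Their median log2 difference was -0.22 with 6 of 10 below 0, from -0.77 for Lmod1 and -0.46 for Synpo2, an actin-binding protein, to 0.10 for Tagln and 0.41 for Des, with Acta2 at 0.09 and Myh11 at 0.07. Brown adipocyte markers spanned 6.65 to 8.82 in Fto -/- samples and 5.59 to 6.7 in Fto +/+ samples (7 of 8 tested, 0 passing, 4 at an unadjusted p under 0.05). Their median log2 difference was 1.19, with 5 above 0 and 2 below, Prdm16 at -0.13 and Dio2 at -0.07. Fto -/- replicate 3, lowest on the NM_001164249 probe, was highest on this list. White adipocyte markers ranged from 7.78 to 9.16 and from 6.37 to 8.94 (7 of 8 tested), and T cell markers from 2.13 to 3.67 and from 1.96 to 3.4 (8 of 9 tested). Each tested gene of both lists had a difference above 0, with medians of 0.75 and 1.57. In each list 0 passed and 1 had an unadjusted p under 0.05. Of the T cell genes Cd3d, Cd8a, Cd8b1 and Rag1 were well above background on 4 of 8 arrays and Cd3g on 5. Cd3e, Cd4 and Lck were so on all 8, and differed by 0.18, 0.06 and 1.21. Endothelial markers lay at 5.91 to 6.53 and 6.26 to 6.75, and fibroblast markers at 9.7 to 9.93 and 9.34 to 9.95. Macrophage markers lay at 5.14 to 6.31 and 4.44 to 5.86, and platelet and erythroid markers at 3.93 to 5.41 and 3.68 to 4.97. The median log2 differences of these lists, in the same order, were -0.23, 0.24, 0.39 and 0.05. Over the 8 arrays, the NM_001164249 probe had a Pearson r of -0.880 with the mean centred level of the brown adipocyte list, or -0.739 with each genotype centred. The Tpm2 probes NM_001277875 and NM_009416 had -0.809 and -0.799 with that list (-0.489 and -0.454 centred) and 0.879 and 0.898 with the smooth muscle list (0.904 and 0.897 centred). For the NM_001164249 probe the r with the smooth muscle list was 0.699 (0.260 centred). These values describe 8 arrays that share their scaling, and the part of these lists in the tropomyosin differences was not tested. In bulk tissue, fewer cells of a type and less RNA per cell cannot be told apart.

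For the brightest probe of each gene, the 3 named genes of most similar pattern over the 8 arrays were taken from 13050. The Tpm1 NM_001164249 probe was nearest to Wdtc1 (Pearson r = 0.991), the actin-binding gelsolin relative Flii (0.987) and the amyloid precursor gene App (0.981). The Tpm2 NM_001277875 probe was nearest to Pacsin3 (0.990), Ctif (0.990) and the importin gene Kpna6 (0.984). With each genotype centred these r were 0.947, 0.930 and 0.933 for Tpm1 and 0.954, 0.927 and 0.892 for Tpm2. The Tpm3 NM_001253738 probe was nearest to Snrnp35 (0.972), Ebna1bp2 (0.961) and Hif1an (0.944), and Tpm4 to Glipr2 (0.992), Tmtc4 (0.973) and Dennd4a (0.967). These are descriptions of 8 arrays that share 1 slide and 1 scaling, taken as the highest of many.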

How the data were processed

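The deposited scanner files, written by Agilent Feature Extraction (version 11.0.1.1, per the file headers), give background-subtracted intensity values for each spot of an array annotated on mm9. The deposited series table holds log2 values, centred per probe (column medians from -0.0095 to 0.0048), and how it was normalized is not stated. The arrays shared 1 slide and 1 scan date.

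Control spots (3671 per array) and outlier spots were left out, and log2 processed intensities were set against the 75th percentile of the array. Probes well above background on at least 4 of 8 arrays were tested with limma 3.58.1 in R 4.3.3 (lmFit, eBayes), as Fto -/- minus Fto +/+; p-values were adjusted by Benjamini-Hochberg over the tested probes (threshold 0.05). Pairs of tested probes of 1 gene with different transcript names were fitted the same way on their per-array difference, adjusted over all 929 pairs. Probes were named through RefSeq accessions (28331 of 55681, GRCm38.p6), and promoter windows are RefSeq's. A list gene stands by its brightest tested probe. A summed level is the log2 of the summed scaled intensities, so the brightest genes of a list weigh most in it. A mean centred level weighs each gene alike. The number of arrays limits the precision. The fits were tested on simulated data, with noise drawn independently for each probe and array. Slide row and variation shared between probes were not simulated.

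Members, lists and tests were chosen with earlier results of these data known. Named genes are the members, the 3 genes most like the brightest probe of each, and up to 4 genes of smallest p per list. Acta2, Myh11, Cald1, Cnn1, Synpo2, Tagln, Des and the striated muscle genes were added after their values were seen. So were the T cell genes, Prdm16, Dio2 and the genes most like the dim Tpm3 probe. Alternatives were quantile normalization, normexp background correction, the series table, other filters, a replicate block, slide row and leaving out arrays.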

Additional observations from a re-analysis of the deposited data

Results flagged for a closer look

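Among the 20 groups of 4 arrays (10 tested tropomyosin probes in each genotype), 2 held a sample far from the others, by the gap to the nearest array as a share of the group's range; chance flags about 1 in 20 such groups. Fto -/- replicate 3 stood low on the Tpm1 NM_001164249 probe (4.20 against 4.60 to 4.67, share 0.863), and without it the log2 difference was -0.54. Fto +/+ replicate 2 stood high on the Tpm3 NM_001253738 probe (5.69 against 5.56 to 5.57, share 0.915).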

How the results depend on the processing

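The Tpm1 NM_001164249, Tpm1 NM_001164255, Tpm2, Tpm3 and Tpm4 probes kept their direction in all 18 alternatives. So did the Tpm2 pair, the Tpm3 pair and the Tpm1 pairs with the NM_001164249 probe. The other Tpm1 pairs were not followed there, and the calls of Tpm1 and Tpm2 did not hold. The 2 tropomyosin calls were 0 with quantile normalization (-0.60 and -0.52, limma adjusted p = 0.0577 and 0.0578), 0 with the deposited series table, 0 with no filter on dim probes, 0 with slide row as a block, 0 within either row, and 0 without the 2 arrays brightest for NM_001164248 (in each, 0 to 4 at an unadjusted p under 0.05); without 1 array each they ran from 0 to 1. They stayed at 2 with normexp on median signals and with the filter on all 8 arrays. Without 1 array each, the calls over all tested probes ran from 98 (without Fto -/- replicate 4) to 876 (without Fto +/+ replicate 4) and the pairs from 15 (without Fto +/+ replicate 3) to 115 (without Fto +/+ replicate 4). With no filter there were 95 probes and 13 pairs, with slide row as a block 46 and 12, within row 1 limma called 0 and 0 (2105 and 110 at an unadjusted p under 0.05), within row 2 1 and 0 (1390 and 65), and without the 2 arrays 39 and 9. Within a row 1 genotype has 1 array, assumed to vary like the others.

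With the replicate block 130 probes, 0 tropomyosin probes (3 at an unadjusted p under 0.05) and 2 pairs passed in limma, and the Tpm1 NM_001164249 and Tpm2 NM_001277875 probes had adjusted p = 0.0955 and 0.0934. Deviations of samples with the same number correlated at 0.155, -0.024, -0.019 and -0.041. They were not compared with samples of different numbers, so they cannot decide whether equal numbers mean paired samples, which is not stated.

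Sign changes were limited to dim or variable Tpm1 probes. A_55_P2187038 was 0.37 with row as a block and 0.95 within row 2 (-0.63 to 0.084 without 1 array each), A_55_P2187043 was 0.42 and 0.98 (-0.51 to 0.16), and NM_001164251 was -0.34 within row 2 (-0.031 to 0.30). The cause was not tested. Normexp on mean signals was not run, since only median signals were at hand.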

Other observations

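The gene most like the dim Tpm3 probe NM_001293748 (A_55_P2090205) over the 8 arrays was Neb (Pearson r = 0.965 among 13050 genes), named after its value was seen. Neb encodes the giant thin filament protein nebulin of skeletal muscle. Krtap19-2 (0.965), Slc7a3 (0.9575) and Nxph3 (0.956) came next. With the mean centred level of the cardiac and skeletal muscle list this probe had a Pearson r of 0.230, or -0.040 with each genotype centred. Neb was highest in Fto +/+ replicates 3 and 4 (-1.15 and -1.49), as was this Tpm3 probe (-0.30 and -0.43), and 2 of its 8 readings were not well above background. The troponin genes of fast skeletal muscle had wide errors, with Tnni2 at -1.81 ± 1.07 and Tnnt3 at -1.45 ± 0.71 (SE, limma adjusted p = 0.392 and 0.309).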
